A study of Mus musculus with 10 samples.

Results

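Interferon-stimulated genes are the genes that cells switch on when an interferon, a cytokine of the antiviral response, binds its receptor. The 41 described here are type I interferon-stimulated genes chosen by name, without the IRF and STAT transcription factors and, apart from Mx1 and Mx2, without the families of interferon-induced GTPases, and all 41 are among the 24391 gene names counted. They were measured by bulk RNA-seq in the bilateral whole hippocampus of adult male C57BL/6J mice, with 1 library per mouse, and by the labels no group was given a drug as a treatment. In the subarachnoid hemorrhage (SAH) group (n = 4), a filament passed through the carotid artery punctured the circle of Willis, the arterial ring under the brain, and only mice whose cerebral blood flow fell steeply at that moment were kept. In the Sham group (n = 3) the filament was advanced without a puncture, and the Naive group (n = 3) had no surgery. The surgery was done under isoflurane, and the operated mice were examined at day 4. Mice carry the numbers of the study (SAH 1 to 4, Sham 5 to 7 and Naive 8 to 10), and Sham and Naive mice together are called control (n = 6).

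Type I interferons signal through the receptor chains Ifnar1 and Ifnar2 and the kinases Jak1 and Tyk2, which activate transcription factors, Stat2 and Irf9 among them. These enter the nucleus and bind a short element, with repeated GAAA letters, in the promoters of their target genes. The products block viral entry, translation or genome copying, sense foreign RNA and DNA, tag proteins with the ubiquitin-like protein Isg15, or damp the signal again. In the brain, microglia, border macrophages and endothelial cells are among the cells that carry such a response, and it is known from infection, injury, ageing and demyelination. In bulk tissue, more cells of a type and more RNA per cell cannot be told apart.

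Gene promoters were read first, since that element is known from many interferon-stimulated genes. RefSeq promoter windows (build GRCm38.p6, 250 bases before to 50 after the start of the gene) could be matched to 28 of the 41 genes. The motif GAAANNGAAA, searched on both strands, was present in 13 of these 28 (46.4%), against 1079 of 27025 genes with a window (3.99%). It was found in 11 of the 16 genes with a window that were called higher in SAH than in control, in 0 of the 9 that were tested and not called, and in 2 of the 3 that had too few counts for the test. The members without a window are Usp18, Oas2, Mx1, Mx2, Dhx58, Zbp1, Ifi204, Parp9, Parp14, Rtp4, Tor3a, Ifi27 and Ifi27l2a. A gene with several windows counted as a match if any of them held the motif. The members were chosen as interferon-stimulated genes, many of which are known to carry the element. Their excess over all genes is therefore no independent result, and the shares by call were not tested. A match describes these letters in this window and is not evidence of binding.

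The stretches of 60 bases shown next lie upstream of the start of 6 members that were higher in SAH and of Oas1a, whose counts were too low for the test, and are written 5′ to 3′ on the strand of the gene. Capitals mark the letters that match the motif or its reverse complement, and where matches overlap the whole run is in capitals. They come from chr4:156200850-156200909 (minus strand) for Isg15, chr19:34640779-34640838 (plus) for Ifit1, chr19:34583382-34583441 (plus) for Ifit3, chr8:71537562-71537621 (minus) for Bst2, chr7:140955973-140956032 (minus) for Ifitm2, chr12:26456538-26456597 (minus) for Rsad2 and chr5:120907526-120907585 (minus) for Oas1a, all in GRCm38.p6.
Isg15: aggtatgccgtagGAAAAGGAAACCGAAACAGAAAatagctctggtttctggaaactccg
Ifit1: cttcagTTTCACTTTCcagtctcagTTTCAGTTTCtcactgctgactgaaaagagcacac
Ifit3: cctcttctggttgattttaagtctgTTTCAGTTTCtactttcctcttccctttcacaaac
Bst2: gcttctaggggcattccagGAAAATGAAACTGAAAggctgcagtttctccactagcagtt
Ifitm2: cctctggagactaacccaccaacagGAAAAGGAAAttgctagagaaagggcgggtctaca
Rsad2: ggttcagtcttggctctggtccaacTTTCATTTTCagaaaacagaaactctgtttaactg
Oas1a: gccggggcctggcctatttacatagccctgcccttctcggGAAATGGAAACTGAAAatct
Isg15 held 3 matches in this stretch, Ifit1, Bst2 and Oas1a held 2 each, and Ifit3, Ifitm2 and Rsad2 held 1 each.

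The first comparison asked which of these genes differed in the hippocampus after hemorrhage. Of the 41, 35 had enough counts to be tested, and 22 of the 35 (62.9%) were higher in SAH than in control at an adjusted p under 0.10, whereas 3.13% of all 14993 genes tested were called higher. None of the 35 was called lower, against 1.54% of all genes tested. The median log2 fold change was 0.63 over the 35 genes and −0.0024 over all genes tested, and the members ranged from 0.048 for Cmpk2 to 2.41 for Ifi27l2a. In 19 of the 35 (54.3%) each of the 4 SAH mice lay above each of the 6 control mice, which was so for 2.83% of all genes tested. Values are CPM, in which counts are set against the TMM-adjusted total of each library, and adjusted p-values are those of edgeR's quasi-likelihood test with Benjamini-Hochberg adjustment over all genes tested. A rise is given as a log2 fold change throughout. A gene entered the test when at least 4 mice reached about 10 counts. Ifi204 and Ifi27l2a met this through the SAH mice, since 0 and 1 control mice reached the limit. Without any filter, 26 of all 41 members (63.4%) were called higher, against 2.53% of 19538 genes.

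**Figure D1:**
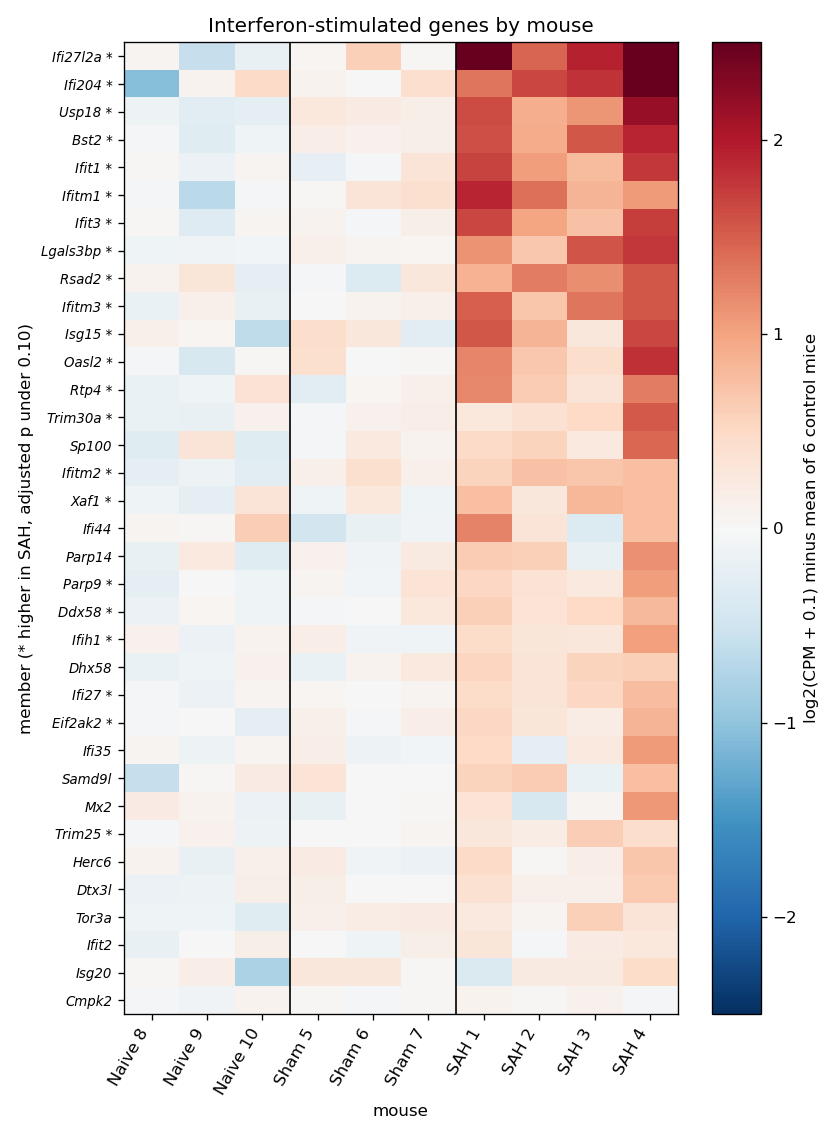
Heat map of the 35 tested interferon-stimulated genes (rows, ordered by log2 fold change) in the 10 mice (columns), as log2(CPM + 0.1) minus the mean of the 6 control mice, with darker red for higher values and the darkest red also for values beyond the scale. The SAH columns are red in most rows, most deeply in SAH 4. Most cells of the Sham and Naive columns are paler, with exceptions such as Ifi204 in Naive 8, which lies below the control mean.

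The 4 SAH mice did not carry the difference to the same extent. The median over the 35 members of the log2 difference from the control mean was 0.57 in SAH 1, 0.39 in SAH 2, 0.49 in SAH 3 and 1.08 in SAH 4. The same median lay between −0.11 and −0.031 in Naive mice and between 0.0052 and 0.13 in Sham mice. SAH 4 had the highest value of the 4 in 19 of the 22 genes called, and the lowest value was that of SAH 2 in 9 genes, of SAH 3 in 9 and of SAH 1 in 4. Without SAH 4, 14 of 35 members tested were called higher, beside 1.48% of all genes tested in that fit. Without SAH 3, 29 of 38 were, beside 2.75% of all genes. The 3 members beyond the 35, Mx1, Oas1a and Zbp1, were all called, and since 0 control mice reached the limit for them they had entered through the SAH mice. SAH 3 also stood apart over genes at large. The chi-square of the counts of a pair of libraries, per degree of freedom, was 15.3 to 19.3 in pairs with SAH 3. It was 4.28 to 10.7 in the other SAH pairs and 4.09 to 9.09 in pairs within Sham or Naive. The bearing of this on the members was not tested.

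The IFIT proteins bind viral RNA that lacks the marks of host mRNA and keep it from being translated. Their genes lie in 1 region of chromosome 19 of mm9, the build of the count tables, all on the plus strand. Ifit2 lies at chr19:34625184-34651024, Ifit3 at chr19:34658019-34663472 and Ifit1 at chr19:34715379-34724499. Ifit1 had 6.91, 4.38, 3.64 and 7.31 CPM in SAH 1 to 4, 1.77, 1.99 and 2.61 in Sham 5 to 7, and 2.11, 1.85 and 2.16 in Naive 8 to 10. Ifit3 had 11.7, 7.32, 6.11 and 12.2 CPM in SAH mice, 3.84, 3.57 and 4.02 in Sham mice, and 3.72, 2.88 and 3.82 in Naive mice. For both genes the groups did not overlap, and SAH 1 and SAH 4 lay well above SAH 2 and SAH 3. Ifit1 rose by 1.41 in log2 units (standard error, SE, 0.19, adjusted p = 0.00284) and Ifit3 by 1.35 (SE 0.18, adjusted p = 0.00235). Ifit3 has a close copy, Ifit3b, and read pairs that fit both were not counted, so its level is uncertain.

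Ifit2, from the same region, was not past the threshold. It had 11.9, 9.42, 11.1 and 11.6 CPM in SAH mice, against 8.46 to 10.8 in the control group (median 9.62), and the groups overlapped. Its log2 fold change was 0.18 (95% interval −0.018 to 0.38, adjusted p = 0.344). The ratio of Ifit3 to Ifit2 within a mouse was 0.984, 0.777, 0.550 and 1.05 in SAH 1 to 4 and between 0.299 and 0.440 in the 6 control mice. A similar contrast was seen on chromosome 12, where Rsad2, which codes for the antiviral enzyme viperin (chr12:27127608-27141317, minus strand), lies beside Cmpk2, a mitochondrial nucleotide kinase (chr12:27154080-27164702, plus strand). Rsad2 had 1.5, 2.02, 1.87 and 2.48 CPM in SAH mice, 0.743, 0.588 and 0.965 in Sham mice, and 0.827, 0.977 and 0.637 in Naive mice, a rise of 1.33 (SE 0.20, adjusted p = 0.00375). Cmpk2 had 25.1, 23.9, 25.4 and 22.9 CPM in SAH mice, against 22.1 to 25 in the control group. Its log2 fold change was 0.048 (95% interval −0.067 to 0.16, adjusted p = 0.678). The ratio of Rsad2 to Cmpk2 ranged from 0.0597 to 0.108 in SAH mice and from 0.0254 to 0.0443 in control mice. The motif was found in the promoter windows of Ifit1, Ifit3 and Rsad2 and not in those of Ifit2 and Cmpk2. It was also absent from the windows of Ifitm1, Trim25, Oasl2, Lgals3bp and Xaf1, which were called higher. The part of the motif in these contrasts was not tested.

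**Figure D2:**
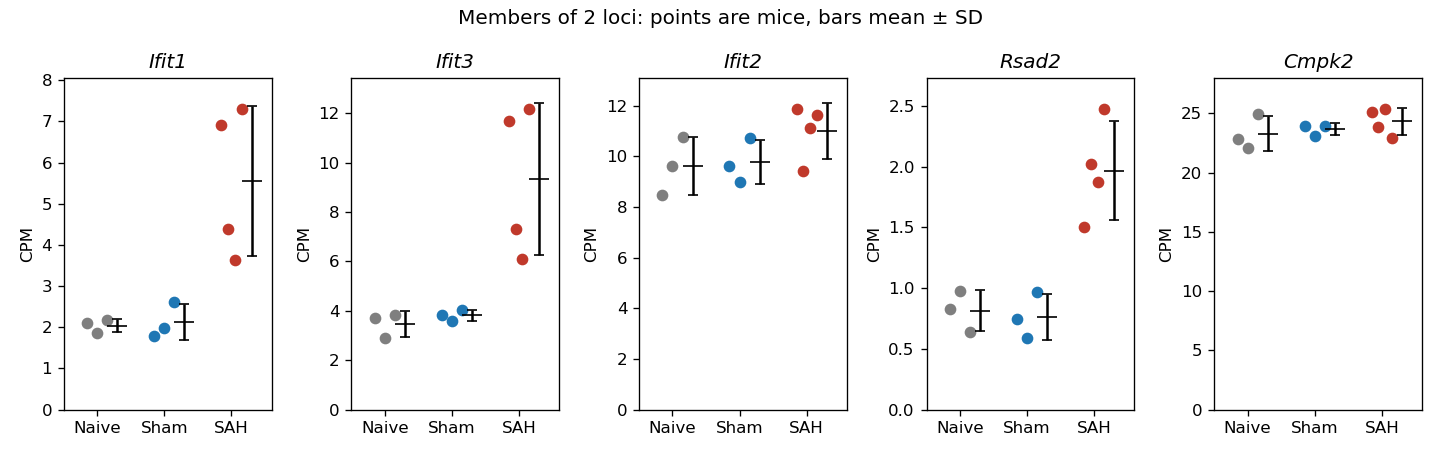
CPM of Ifit1, Ifit3 and Ifit2 (chromosome 19) and of Rsad2 and Cmpk2 (chromosome 12) in each mouse of the 3 groups, with the mean ± SD beside the points. For Ifit1, Ifit3 and Rsad2 the 4 SAH points lie above all control points, and for Ifit2 and Cmpk2 the groups overlap.

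The IFITM proteins sit in the plasma and endosomal membranes and hinder the fusion of enveloped viruses. All 3 members, which lie within a short stretch of chromosome 7 (chr7:148140738-148196643 in mm9), were higher in SAH. Ifitm3 had 18.7, 10.8, 16.8 and 19.5 CPM in SAH mice, 6.56, 7.02 and 7.20 in Sham mice and 5.90, 7.20 and 5.82 in Naive mice, and rose by 1.31 (SE 0.14, adjusted p = 0.000667). Ifitm1 had 4.50, 3.09, 2.12 and 2.48 CPM in SAH mice, against 0.668 to 1.53 in the control group (median 1.13), and rose by 1.37 (SE 0.23, adjusted p = 0.00758). SAH 1 was the highest mouse for Ifitm1, unlike most of the other members. Ifitm2 had 9.67, 10.9, 10.7 and 11.1 CPM in SAH mice, 7.14, 8.68 and 7.20 in Sham mice, and 5.49, 5.96 and 5.39 in Naive mice. It rose by 0.67 (SE 0.12, adjusted p = 0.0107), with the 3 Sham mice between the Naive and the SAH mice.

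Isg15 is joined to target proteins by ligases that include Trim25 and, in mice, Herc6, and Usp18 removes it and also blocks the interferon receptor. Of these 4 genes, 3 were higher. Usp18 had 1.64, 0.956, 1.11 and 2.44 CPM in SAH mice, 0.578, 0.551 and 0.523 in Sham mice and 0.414, 0.360 and 0.382 in Naive mice, and rose by 1.70 (SE 0.28, adjusted p = 0.00629). Isg15 had 2.08, 1.25, 0.808 and 2.28 CPM in SAH mice, against 0.382 to 0.908 in the control group (median 0.692), so that SAH 3 lay within the control range. It rose by 1.26 (SE 0.30, adjusted p = 0.0422), and without SAH 4 it was not past the threshold (log2 fold change 1.03, adjusted p = 0.159). Trim25 had 8.12, 7.58, 10.2 and 9.07 CPM in SAH mice, against 6.07 to 7.15 in the control group (median 6.63), and rose by 0.39 (SE 0.09, adjusted p = 0.0436). Its call was lost without SAH 4 or without Naive 8. Herc6 ranged from 5.52 to 8.71 CPM in SAH and from 4.68 to 6.23 in control, and was not called (0.36 in log2, adjusted p = 0.182).

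The OAS enzymes make a short oligoadenylate when they meet double-stranded RNA, which activates an RNA-cutting enzyme, and Oasl1 and Oasl2 are relatives of them. Oasl2 had 6.72, 4.56, 3.89 and 10.3 CPM in SAH mice, against 2.11 to 3.76 in the control group (median 2.84), and rose by 1.15 (SE 0.24, adjusted p = 0.0194). The other OAS genes had too few counts for the test. In SAH 1 to 4, Oas1a had 12, 11, 2 and 36 counts, Oas2 had 15, 10, 5 and 42, and Oasl1 had 11, 7, 4 and 18. The control mice had 1 to 7 counts of Oas1a, 1 to 7 of Oas2 and 0 to 8 of Oasl1, so each of the 3 genes had its highest count in SAH 4, and SAH 3 lay within the control range for all 3. Oas3 had 0 to 6 counts per mouse. The fit without a filter called Oas2 higher (log2 fold change 2.19, adjusted p = 0.0399) and Oas1a as well (1.89, adjusted p = 0.0927, and 0.0188 without SAH 3 but 0.130 with the fit of 3 groups), but not Oasl1 (adjusted p = 0.173) or Oas3 (adjusted p = 0.427). Isg20, an exonuclease that degrades single-stranded RNA, had 0.435 to 0.839 CPM in SAH and 0.297 to 0.743 in control. It was not called (0.15 in log2, adjusted p = 0.805).

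The Mx proteins are large GTP-binding proteins that trap viral components. Mx1 had 13, 12, 7 and 17 counts in SAH mice, against 1 to 7 in the control group, and did not enter the test. In CPM it had 0.629, 0.441, 0.354 and 0.680 in SAH mice, all above the control range of 0.0368 to 0.289. It was called higher in 3 of the 4 alternative fits that tested it, at an adjusted p of 0.0424 without the filter (log2 fold change 1.70), 0.0592 with the fit of 3 groups and 0.0300 without SAH 3, and not with the 3 mice of highest choroid plexus sum left out (adjusted p = 0.178). Many laboratory strains, C57BL/6 among them, carry a defective Mx1 gene, so its counts need not stand for working protein. Mx2 had 0.478 to 1.52 CPM in SAH and 0.578 to 0.790 in control, with SAH 2 below all control mice. It was not called (0.41 in log2, adjusted p = 0.491).

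The sensors of foreign nucleic acid are themselves induced by interferon. Ddx58, which codes for the RNA sensor RIG-I, had 9.04, 7.50, 8.44 and 10.4 CPM in SAH mice, against 5.30 to 7.08 in the control group (median 5.83), and rose by 0.57 (SE 0.11, adjusted p = 0.0121). Ifi204, a DNA-binding sensor, had 13, 22, 18 and 44 counts in SAH mice, against 1 to 7 in the control group, or 0.629, 0.809, 0.909 and 1.76 CPM against 0.0376 to 0.297. The gene rose by 2.35 (SE 0.39, adjusted p = 0.00631). It belongs to a family of closely related neighbours on chromosome 1, so the share of its reads that could be counted is uncertain. Ifih1, the sensor of long double-stranded RNA, had 4.59, 4.12, 4.09 and 6.88 CPM in SAH mice, against 2.98 to 3.76 in the control group (median 3.32), a rise of 0.56 (SE 0.15, adjusted p = 0.0722). Eif2ak2, the kinase PKR that halts translation, had 10.6, 9.12, 8.39 and 13.4 CPM in SAH mice, against 6.28 to 8.29 in the control group (median 7.29), a rise of 0.50 (SE 0.12, adjusted p = 0.0521). For both, SAH 4 was the highest mouse, and the calls were lost without it and without any of the 3 Naive mice, that of Ifih1 also without Sham 6 or Sham 7. Dhx58, a regulator of these RNA sensors, had 1.14 to 1.40 CPM in SAH and 0.784 to 1.09 in control, and although the groups did not overlap it was not past the threshold (log2 fold change 0.53, adjusted p = 0.126). Zbp1, a sensor that can trigger cell death, had 9, 20, 4 and 15 counts in SAH mice, against 2 to 9 in the control group, too few for the test. It was called higher without SAH 3 (log2 fold change 1.43, adjusted p = 0.0649), and not without the filter (adjusted p = 0.170), with the fit of 3 groups (0.184) or with the 3 mice of highest choroid plexus sum left out (0.111).

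Parp9, Dtx3l and Parp14 act in one complex or axis of ADP-ribosylation and ubiquitination, and Parp9 and Dtx3l overlap head to head on opposite strands of chromosome 16. Parp9 had 5.03, 4.45, 4.09 and 7.23 CPM in SAH mice, against 2.90 to 4.38 in the control group (median 3.40), and rose by 0.58 (SE 0.16, adjusted p = 0.0832). SAH 3 lay below the highest control mouse, Sham 7, and the call was lost without SAH 4, Sham 5, Sham 6 or any of the 3 Naive mice. Neither Dtx3l, with 6.72 to 9.67 CPM in SAH and 5.49 to 6.77 in control (0.34 in log2, adjusted p = 0.146), nor Parp14, with 3.28 to 8.39 and 3.01 to 4.47 (0.63, adjusted p = 0.127), was past the threshold.

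Among the membrane and secreted proteins, Bst2 (tetherin), which holds budding viruses at the cell surface, had 5.90, 3.64, 5.66 and 7.23 CPM in SAH mice, 2.10, 2.02 and 2.09 in Sham mice and 1.84, 1.49 and 1.74 in Naive mice. It rose by 1.56 (SE 0.17, adjusted p = 0.000758). Lgals3bp, a secreted glycoprotein that binds galectin-3, had 31.0, 22.6, 42.2 and 48.2 CPM in SAH mice, 15.5, 14.7 and 14.7 in Sham mice and 13.1, 13.3 and 13.5 in Naive mice. Its SAH mean was 36.0 ± 11.4 CPM (SD, n = 4), beside a control mean of 14.1 ± 0.961 CPM (SD, n = 6), and it rose by 1.35 (SE 0.16, adjusted p = 0.000959). The spread of the 4 SAH mice was wide in both genes, while the 6 control mice lay close together. Rtp4, a chaperone of G protein-coupled receptors, had 3.72, 2.5, 1.97 and 3.96 CPM in SAH mice, against 1.28 to 2.04 in the control group (median 1.53), a rise of 0.94 (SE 0.21, adjusted p = 0.0271). Its call was lost without SAH 4. Tor3a, a torsin ATPase of the endoplasmic reticulum, had 7.54 to 11 CPM in SAH and 5.82 to 8.33 in control. It was not called (0.31 in log2, adjusted p = 0.224).

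Ifi27 and Ifi27l2a code for small membrane proteins of the same family and overlap on opposite strands of chromosome 12. The counting used the strand, so their reads were kept apart. Ifi27 had 28.8, 26.3, 30.2 and 35.9 CPM in SAH mice, against 18.9 to 22.1 in the control group (median 21.4), a rise of 0.52 (SE 0.08, adjusted p = 0.00375). Ifi27l2a had 2.47, 1.14, 1.62 and 2.84 CPM in SAH mice, 0.371, 0.588 and 0.362 in Sham mice and 0.376, 0.206 and 0.297 in Naive mice, a rise of 2.41 (SE 0.30, adjusted p = 0.00151). Xaf1, a partner of an apoptosis inhibitor, had 4.35, 3.09, 4.60 and 4.36 CPM in SAH mice, against 2.11 to 3.18 in the control group (median 2.34), and rose by 0.67 (SE 0.15, adjusted p = 0.0376). SAH 2 lay within the control range, and the call was lost without SAH 4. Trim30a, a ligase that restrains signalling from Toll-like receptors, had 2.37, 2.57, 2.78 and 5.80 CPM in SAH mice, against 1.70 to 2.21 in the control group (median 2.00), a rise of 0.79 (SE 0.23, adjusted p = 0.0976). Its call was lost without SAH 4 (log2 fold change 0.39) and without any one of the 6 control mice.

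The remaining 4 genes, Sp100 of the nuclear bodies, Samd9l, Ifi35 and Ifi44, were not past the threshold. Their log2 fold changes were 0.79 (adjusted p = 0.102), 0.48 (adjusted p = 0.211), 0.49 (adjusted p = 0.270) and 0.63 (adjusted p = 0.332). All 4 overlapped between the groups.

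**Figure D3:**
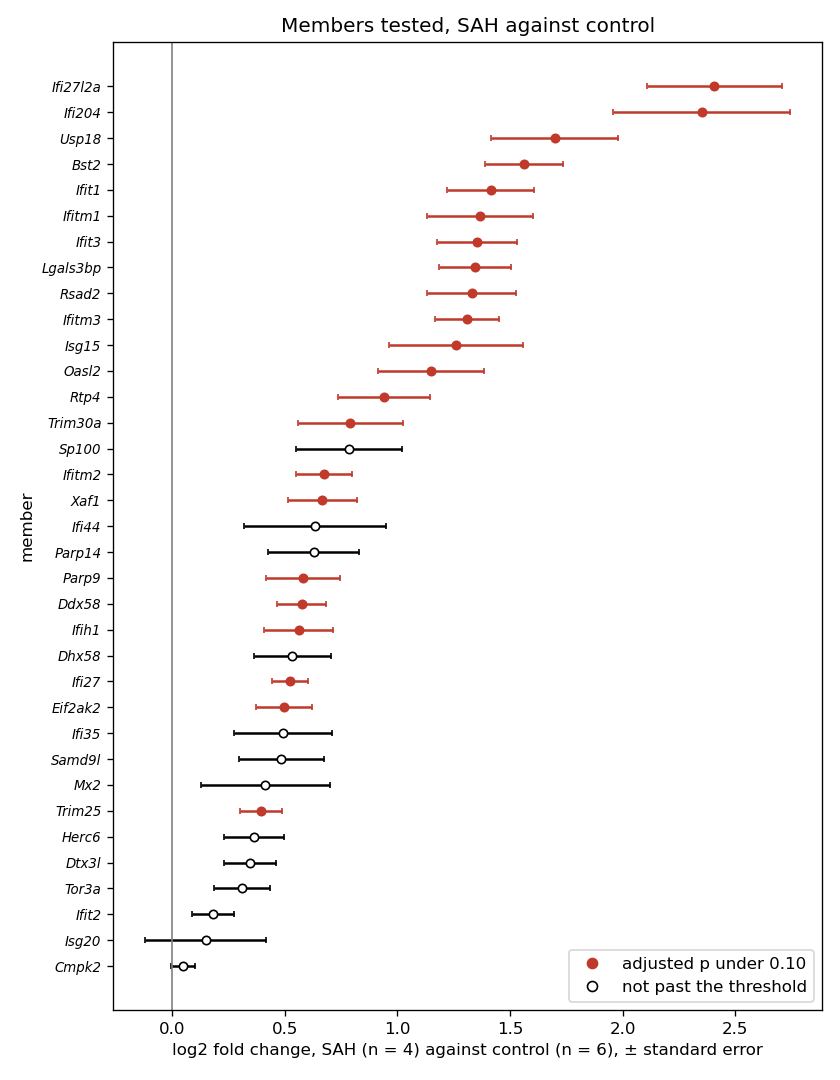
Log2 fold change of the 35 tested members in SAH (n = 4) against control (n = 6), with bars for the standard error; filled red points passed an adjusted p of 0.10. All 35 points lie above 0, and the 3 lowest are Cmpk2, Isg20 and Ifit2.

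Levels could be compared between genes only per length. In control mice, CPM per kilobase of exon was highest for Ifi27 (19.99 ± 1.12), Ifitm2 (10.6 ± 2.02), Ifitm3 (10.2 ± 0.975), Cmpk2 (7.37 ± 0.320) and Lgals3bp (6.52 ± 0.443; SD, n = 6 each), and Ifitm2 and Ifitm3 did not differ beyond their spread. The lowest were Oas3 (0.0127 ± 0.0114), Oas2 (0.0417 ± 0.0220) and Mx1 (0.0549 ± 0.0314). In SAH mice Ifi27 (28.8 ± 3.85), Ifitm3 (25.4 ± 6.08), Ifitm2 (16.9 ± 1.03) and Lgals3bp (16.6 ± 5.26; SD, n = 4 each) led, and Ifi27 and Ifitm3 lay within their spread of each other.

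The pairwise comparisons asked how SAH and Sham mice, which both had surgery, and Naive mice differed. They came from a fit of the 3 groups, in which 38 members were tested, and those that share a group share its mice. Mx1, Oas1a and Zbp1, which are among the 38 and not among the 35, entered through the SAH mice, as Ifi204 and Ifi27l2a did, so the counts and medians over the 38 are descriptions that rest in part on members let in for their level in SAH. In SAH against Sham, 10 members were higher (0.529% of the 15134 genes tested were called higher). These were Ifit1, Ifit3, Ifitm2, Ifitm3, Rsad2, Bst2, Lgals3bp, Ifi27, Ifi27l2a and Ifi204, with log2 fold changes from 0.47 for Ifitm2 to 2.19 for Ifi204. The median log2 fold change was 0.68 over the 38 members and −0.0019 over all genes, and 37 members had a value above 0. DESeq2 called 15 of the 38 higher, beside 1.49% of all genes, and without SAH 3 edgeR called 16 of 38, beside 1.1%. Without SAH 1 or SAH 2, 10 and 12 of 35 were called (0.853% and 1.04% of all genes). Without Naive 8, 9 or 10, 7, 8 and 7 of 40 were called (0.295%, 0.313% and 0.248%). The choices of mice that follow left fewer calls. With the 4 SAH and 3 Sham mice alone in the fit, 1 member was called higher, beside 0.0797% of all genes in that fit. With the 3 groups in the fit, 0 members were called without Sham 5 (0.0653% of all genes) or without Sham 6 (0.0393%), 1 without Sham 7 (0.0983%) and 3 without SAH 4 (0.120%).

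In SAH against Naive, 17 members were higher (2.03% of all genes tested), with a median log2 fold change of 0.79 over the members and 0.00018 over all genes. These were Ifit1, Ifit3, Ifitm1, Ifitm2, Ifitm3, Rsad2, Bst2, Lgals3bp, Ifi27, Ifi27l2a, Ifi204, Isg15, Usp18, Oasl2, Ddx58, Eif2ak2 and Tor3a. Ifi27l2a had the highest value, 2.72 (SE 0.40, adjusted p = 0.00523), and Tor3a the lowest, 0.49 (SE 0.13, adjusted p = 0.0800). DESeq2 called 21 higher, beside 3.09% of all genes. Without Naive 8, 9 members were called by edgeR, beside 0.570% of all genes, and without SAH 3, 23 were, beside 2.21%.

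In Sham against Naive, 0 members were called by edgeR in either direction, nor by DESeq2, and 0.00661% of all genes tested were called by edgeR. An unadjusted p under 0.05 was reached by 2 of the 38 members, beside 2.02% of all genes tested. These were Ifitm2 (log2 fold change 0.45, SE 0.11, adjusted p = 0.999758) and Tor3a (0.35, SE 0.14, adjusted p = 0.999758). In both genes the 3 Sham mice lay above the 3 Naive mice. So they did in other members, among them Ifitm1, Usp18, Bst2 and Lgals3bp. The share of all genes in which this was so was not counted. The median over the members was 0.13, with 29 of the 38 above 0, and −0.0017 over all genes. Members that were called in one pairwise comparison and not in another were not tested for a difference between the comparisons.

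**Figure D4:**
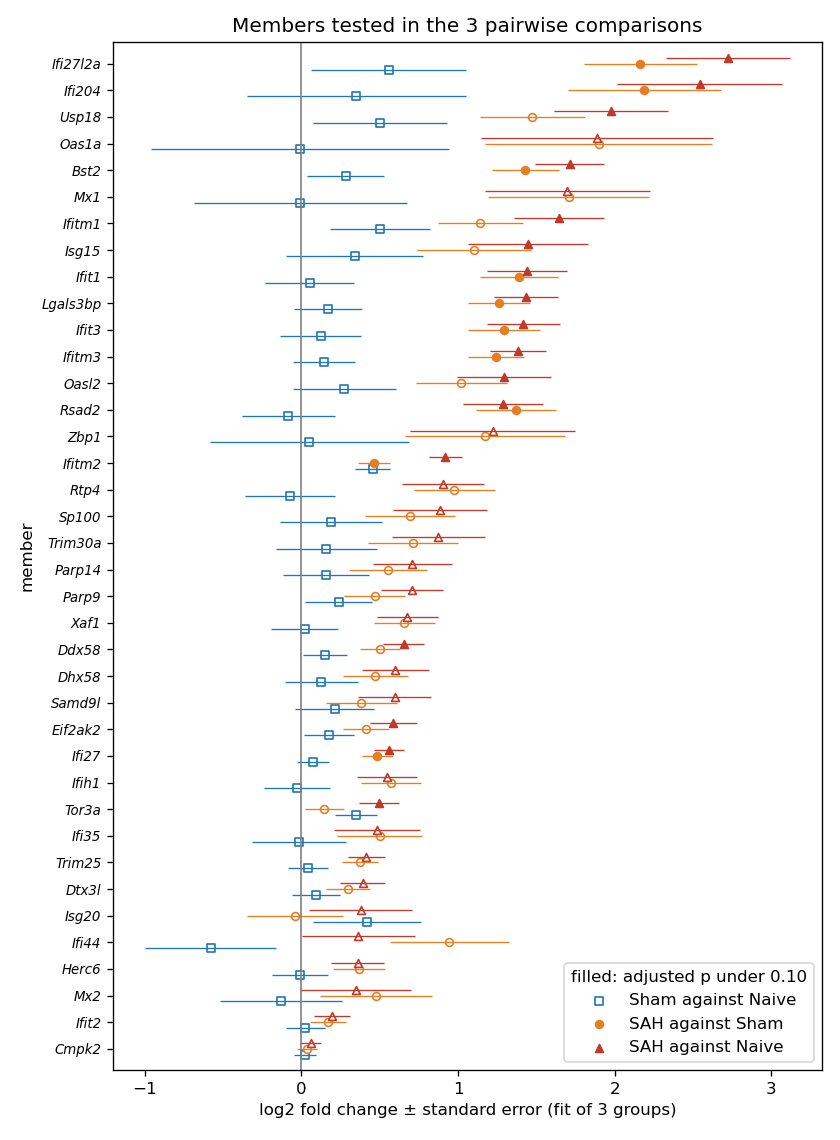
Log2 fold change ± standard error of the 38 members tested in the fit of 3 groups, for SAH against Naive (red triangles), SAH against Sham (orange circles) and Sham against Naive (blue squares); filled symbols passed an adjusted p of 0.10. The symbols of the comparisons with SAH lie to the right of 0 except that of Isg20 in SAH against Sham (−0.039), and no blue square is filled.

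The other genes of the pathway were taken from lists of ligands, receptors, kinases and transcription factors, sensing proteins and feedback inhibitors. Of 8 interferon genes analysed, 0 had enough counts for the test. Ifna1, Ifna2, Ifna4, Ifna5, Ifnb1, Ifnk and Ifne had 0 counts in all 10 mice. A count of 0 allows up to 0.110 to 0.152 CPM per mouse (3 counts) of read pairs assigned to a gene. The Ifna genes are a family of close copies, and pairs that fit several genes were not counted, so for them this is no limit on the level of the transcripts. The hemoglobin genes Hba-a1, Hba-a2, Hbb-b1 and Hbb-b2, which also have close copies, were listed at 0 in all mice as well. Ifng, the type II interferon, had 2 counts in SAH 3, 1 in Sham 6 and 1 in Naive 9.

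Of 5 receptor chains tested, 1 was higher: Il10rb, which is shared by the receptors for interleukin-10 and for type III interferons, rose by 0.45 (SE 0.12, adjusted p = 0.0638). Of 8 kinases and transcription factors, 2 were higher. Irf7, a transcription factor that is itself interferon-induced and drives interferon genes, had 4.88, 3.27, 5.66 and 8.11 CPM in SAH mice, against 0.885 to 1.5 in the control group (median 1.44), and rose by 2.10 (SE 0.24, adjusted p = 0.000840). Irf1 rose by 0.57 (SE 0.12, adjusted p = 0.0193). Stat2 and Irf9 were not past the threshold, with log2 fold changes of 0.09 for Stat2 (adjusted p = 0.573) and 0.37 for Irf9 (adjusted p = 0.215). Among 11 sensing and adaptor genes, 1 was higher, Unc93b1, the chaperone of the endosomal Toll-like receptors, by 0.50 (SE 0.09, adjusted p = 0.00772). Of the 2 feedback inhibitors, 0 were called, with log2 fold changes of 1.04 for Socs3 (adjusted p = 0.166) and −0.22 for Socs1 (adjusted p = 0.804). No gene of these lists was called lower.

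Markers of other cell types moved with the same groups. Of 6 markers of border-associated macrophages, 5 were higher in SAH, and their summed level was 17.7 to 22.1 CPM in SAH mice against 9.66 to 11.3 in Sham mice and 6.17 to 7.15 in Naive mice. Of 7 microglial markers, 1 (Csf1r, by 0.29, SE 0.06, adjusted p = 0.0260) was higher, and the sum was 303 to 374 CPM in SAH against 294 to 334 in control. The microglial sum was highest in SAH 4, as were the sums of 6 endothelial markers (229 CPM, against 117 to 183 in SAH 1 to 3 and 104 to 144 in control) and of 6 mural cell markers, of which 3 and 2 were called higher. Of 5 fibroblast markers, 4 were higher. The lists of blood cells had too few counts for the test of SAH against control, and their sums were low. The sum was 0.303 to 1.74 CPM in SAH and 0.124 to 0.404 in control for 4 monocyte markers. Of these, 2 were called higher without the filter: Ccr2 by 2.45 (adjusted p = 0.0177), with 32, 24, 2 and 17 counts in SAH 1 to 4 against 1 to 6 in the control group, and Ly6c2 by 2.49 (adjusted p = 0.0672), with 2 to 5 counts against 0 to 1. In the fit of 3 groups Ccr2 was tested, and it was not called in SAH against Sham (2.32, adjusted p = 0.217). The sums were 0.405 to 1.21 and 0.0752 to 1.17 for 5 neutrophil markers, 0.184 to 0.879 and 0.331 to 0.527 for 7 markers of T and NK cells, and 0.320 to 0.435 and 0.206 to 0.594 for 5 B cell markers, and none of the markers of these 3 lists was called without the filter. The dendritic cell sum was 11.5 to 13.6 CPM in SAH and 11.1 to 13.1 in control, of 5 markers, 2 of them tested and 0 called. All 5 oligodendrocyte markers were lower in SAH, and 1 of 5 astrocyte markers, Gfap, was higher. The part of these cells in the values of the interferon-stimulated genes was not tested.

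Libraries held between 19743388 and 27254655 counts, and the tissue could be recognized by all 6 markers of hippocampal neurons, which summed to between 509 and 648 CPM in every mouse. Markers of choroid plexus epithelium, a tissue next to the hippocampus, were uneven, with sums of 1230 CPM in SAH 3, 866 in SAH 4 and 832 in Sham 7 against 50.3 to 218 in the other 7 mice. These 3 mice were left out together as an alternative added after the data were seen. It kept only SAH 1 and SAH 2 of the SAH mice, so SAH 4, with the largest rise, was out too. In it 18 of 37 members tested were higher in SAH than in control (1.70% of all genes in that fit). Mx1 and Zbp1, for which 0 control mice reached the limit, were among the 37 and were not called in that comparison. Further, 8 members were higher in SAH than in Sham (0.694%) and 17 in SAH than in Naive (1.85%). Ifit1 (1.49), Ifit3 (1.39), Ifitm1 (1.76), Bst2 (1.34) and Lgals3bp (0.93) were among those called, whereas Trim25, Xaf1, Parp9, Ifih1 and Trim30a were not and Parp14 was (0.66).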

How the data were processed

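RNA-seq of ribosomal RNA-depleted, strand-specific libraries was analysed for 10 mice (4 SAH, 3 Sham, 3 Naive), grouped by their titles. The authors aligned read pairs to mm9 with STAR and made the deposited counts with featureCounts 1.6.2, as whole read pairs per gene name on exons in the sense direction. Pairs on several places or genes were discarded, which lowers genes with close copies. The authors' counts are not normalized.

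Genes were filtered with filterByExpr (at least 10 counts in enough mice and 15 in total), normalized by TMM and tested with the quasi-likelihood method of edgeR 4.0.16 (R 4.3.3). P-values were adjusted over all genes tested (Benjamini-Hochberg), with a threshold of 0.10. SAH was compared with pooled control in a fit of 2 groups and the pairs of groups in a fit of 3. The study's test, DESeq2 (1.42.0 here), was an alternative, beside other normalizations, filters, thresholds and mice. The standard error was the log2 fold change divided by the square root of F, with 95% intervals from the t distribution at the degrees of freedom of the test. Fits were tested on simulated data. Of 324915 exons in the count tables, 88.4% equalled an exon of the NCBIM37 (mm9) annotation. Motifs were searched in Python 3.11.15. The members and lists were chosen with earlier results of these data known. A few genes of these lists are not reported here and were left out of the counts and sums. The text names each member, pathway genes that were called or are central to the pathway, and markers. P-values set the difference between groups against the spread between mice, which was estimated with help from all genes tested. Limits from 0 counts cover counting error only.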

Additional observations from a re-analysis of the deposited data

Results flagged for a closer look

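Within the SAH or the control group, 3 of 70 sets of values held a mouse that stood far from the others, judged by its gap to the next mouse relative to the whole range of the group. Chance alone would give about 3.5 such sets of 70. Trim30a was at 5.80 CPM in SAH 4, against 2.78 in the next SAH mouse (gap 0.881 of the range). Xaf1 was at 3.09 CPM in SAH 2, against 4.35 in the next (0.837 of the range). Isg20 was at 0.297 CPM in Naive 10, against 0.602 in the next control mouse (0.683 of the range).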

How the results depend on the processing

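The number of members higher in SAH than in control was 24 with DESeq2 (4.22% of all genes tested, against 3.13% with edgeR), 22 with DESeq2's size factors (3.19%), 22 with library size alone (3.25%), 26 of 41 without a filter (2.53%), 18 of the 29 tested with at least 10 counts in every mouse (3.04%), 18 at an adjusted p under 0.05 (1.85%), 22 of 38 with the fit of 3 groups (3.00%) and 23 with a robust fit (3.00%). With each mouse left out it ranged from 14 to 29, and the share of all genes from 1.48% to 4.55%. For SAH against Sham it was 15 with DESeq2 and 1 with only the mice of these groups (0.0797% of all genes), and it ranged from 0 to 16 with each mouse left out (0.0393% to 1.1% of all genes). For SAH against Naive it was 21 with DESeq2, and that range was 9 to 23 (0.570% to 2.94%). For Sham against Naive no setting gave a call. No member was called lower under any setting. Of 659 recomputed member values for SAH against control, 605 kept their direction and their side of the threshold, 38 lost the call, 14 gained it and 2 reversed. Both reversals came with the 3 mice of highest choroid plexus sum left out, where Mx2 was at −0.031 and Isg20 at −0.068, neither of them called in any fit. Ifit1, Ifit3, Ifitm1, Ifitm2, Ifitm3, Usp18, Oasl2, Rsad2, Ddx58, Ifi204, Bst2, Lgals3bp, Ifi27 and Ifi27l2a were called in every fit that tested them. Parp9, Eif2ak2, Ifih1 and Trim30a were not called at 0.05, and each lost its call without several single mice. Sp100, Parp14, Dtx3l, Ifi35, Herc6 and Samd9l gained a call under at least 1 setting, as did Mx1, Oas1a, Oas2 and Zbp1 among the members under the filter limit. The cause of these changes was not tested. The 6 members under the filter limit had at most 42 counts in a mouse, which limits their precision. No paired analysis was possible because the groups share no mouse numbers.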
